A study of Caenorhabditis elegans with 12 samples.

Results

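The cuticle collagen genes described here were all protein-coding genes of the Caenorhabditis elegans annotation (build WBcel235) whose symbol is col followed by a number. There were 156 of them, among 19617 protein-coding genes and 46726 features listed in all. What was counted is small RNA reads at each gene, and not the gene's own mRNA. The rule uses gene names alone and no measured value. Whether each of these genes encodes a collagen of the cuticle was not checked.

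Small RNA was taken from adult whole animals grown at 20 °C, in 12 samples that fall into 4 groups. The mutant strain, YY1192, carries hrde-1(gg594) together with hrde-2(gg517). Its control, YY1312, carries hrde-1(gg594) alone and is called wild-type in the sample titles, so the hrde-1 allele is common to every group, and the labels do not say what it changes. Animals of each strain ate bacteria making oma-1 dsRNA or, as the food control, bacteria with L4440, the feeding vector without a worm gene. The groups are thus hrde-2 on oma-1 dsRNA, hrde-2 on L4440, control on oma-1 dsRNA and control on L4440. Cloning did not require a 5′ monophosphate. All hrde-2 libraries carried another 5′ barcode than all control libraries, so that barcode and genotype cannot be told apart.

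Cuticle collagens are the short triple-helical proteins that make up most of the worm's exoskeleton. Hypodermal cells secrete a new set at each molt and for the adult cuticle, after prolyl hydroxylation in the endoplasmic reticulum; proteases then trim the procollagens and an oxidase cross-links them outside the cell. Small RNAs antisense to protein-coding genes are made largely by RNA-dependent RNA polymerases that copy the mRNA, and Argonaute proteins such as the germline HRDE-1 use them to silence genes. hrde-2 is needed for the inheritance of such silencing in the germline.

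The table held 1 column of read counts for each group, in which the 3 samples of the group were merged, so the data carry no measure of how samples within a group vary. Reads at genes numbered 16057238 in hrde-2 on oma-1 dsRNA, 39077097 in hrde-2 on L4440, 34238988 in control on oma-1 dsRNA and 25323188 in control on L4440. Levels are CPM, the read count over a library size corrected by the trimmed mean of M values (TMM). The genotype difference averaged over foods, and the food difference averaged over genotypes, were tested in 1 additive edgeR fit of the 4 columns over all 13753 features kept by a filter on low counts. The spread in that fit is what the additive model leaves unexplained among columns and is shared almost wholly across features, so its p-values do not measure variation between animals. Differences on 1 food or in 1 genotype have no test and carry 95% intervals for counting error alone. PCR copies are not independent molecules. The whole-animal RNA does not separate fewer cells of a type from less RNA per cell. The fed dsRNA was seen at its target: oma-1 stood at 240.1 CPM in hrde-2 and 476 CPM in control on oma-1 dsRNA, against 2.26 and 2.23 CPM on L4440. Reads at hrde-2 itself were few and do not check the allele: 14 and 50 in hrde-2 on oma-1 dsRNA and on L4440, against 13 and 7 in control.

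Reads that match several places can be counted at each of them, and 9 of the 156 collagen genes were marked for this, either because they overlap a gene of a structural RNA or because another feature had nearly the same reads in all 4 columns. These 9 include the collagen gene with most reads by far. Counted at col-181 (WBGene00000754, X:12104930-12106102, plus strand) were 38501 reads in hrde-2 on oma-1 dsRNA, 105559 in hrde-2 on L4440, 166469 in control on oma-1 dsRNA and 126596 in control on L4440. A tRNA gene elsewhere on the X chromosome, WBGene00014440 (X:13717195-13717267), had 38226 and 105124 reads in hrde-2, against 165924 and 126262 in control. A non-coding RNA gene on chromosome III that overlaps another tRNA gene, F42H10.10, also followed it, with 37743 and 104036 reads in hrde-2, against 164276 and 124884 in control. The values at col-181 can therefore not be told apart from tRNA reads. Its share of all reads at collagen genes was 74.5% and 79.5% in hrde-2 on oma-1 dsRNA and on L4440, against 94.7% and 95.1% in control. Summed over all 156 genes the level was 2364 and 2025 CPM in hrde-2, against 7689 and 8020 CPM in control. Over the 147 genes without the mark it was 275 and 251 CPM in hrde-2, against 301 and 269 CPM in control. The large difference in the first sum is thus that of col-181.

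The next highest pair had near-equal reads as well. At col-102 (WBGene00000676, IV:604444-605931) there were 3410 and 4742 reads in hrde-2 on oma-1 dsRNA and on L4440, against 865 and 832 in control. At col-107 (WBGene00000681, IV:1548721-1549714) there were 3416 and 4760 reads in hrde-2, against 870 and 833 in control. The pair lies 942789 bases apart on the same chromosome. Their values are not separate measurements, although the counts of genes below include both. On the CPM scale col-102 stood at 155.9 and 72.3 in hrde-2, against 37.8 and 50.1 in control, so that both hrde-2 columns were above both control columns. Of the remaining marked genes, col-95 had near-equal reads with C28A5.2, col-157 with Y38C1AA.12, and col-54, col-72, col-85 and col-99 overlap a tRNA gene. Below, genes without the mark are called unshared. The mark for near-equal reads was set only at 1000 reads or more over the 4 columns, which 12 of the 156 genes reached. The other genes were marked only where they overlap a gene of a structural RNA, and 74 of the 156 had under 100 reads. Many unshared genes were therefore not checked for near-equal reads by this mark and may still share reads. The pairs col-3 with col-117 and col-7 with col-62 had near-equal reads at lower totals and are still counted as unshared.

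Small RNA levels at unshared collagen genes were low and spread over many genes. The median gene stood at 0.91 CPM in hrde-2 on oma-1 dsRNA and 0.93 CPM in hrde-2 on L4440, against 0.57 CPM in control on oma-1 dsRNA and 0.48 CPM in control on L4440. Every collagen gene had at least 12 reads over the 4 columns, and 4 genes had none in at least 1 column. Of the 147 unshared genes, 23 reached 5 CPM in any column and 8 reached it in every column. The 10 with the highest mean held 33.7% of the reads of the unshared genes. Just inside the limit of 5 CPM were col-184 (5.03 CPM in its highest column), col-160 and col-94 (5.08 CPM each), and just outside were col-179 (4.77 CPM), col-139 (4.71 CPM) and col-42 (4.70 CPM). Of reads at unshared protein-coding genes, collagen genes took 0.942% (95% Wilson interval 0.919 to 0.966) in hrde-2 on oma-1 dsRNA and 0.897% (0.884 to 0.911) in hrde-2 on L4440, against 0.847% (0.827 to 0.867) in control on oma-1 dsRNA and 0.768% (0.746 to 0.791) in control on L4440.

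Per kilobase of exon, the median unshared collagen gene stood at 0.89 and 0.85 CPM in hrde-2 on oma-1 dsRNA and on L4440, against 0.58 and 0.45 CPM in control. The median of the 18741 other unshared protein-coding genes was 0.31 CPM per kilobase in each hrde-2 column, against 0.27 and 0.26 in control. The highest per kilobase over the 4 columns were col-20 at 14.1 CPM, col-122 at 13.6, col-178 at 12.4, col-119 at 11.9 and col-140 at 10.6. Between neighbours in that order the spread of the 4 columns of each gene exceeded the difference of their means. col-20 had 9.60 and 7.58 CPM in hrde-2 on oma-1 dsRNA and on L4440, against 19.8 and 19.1 CPM in control. col-122 had 9.65 and 7.38 CPM in hrde-2, against 18.9 and 16.0 CPM in control. Both hrde-2 columns lay below both control columns at these 2 genes. At col-178 the columns stood at 10.3 and 8.71 CPM in hrde-2, against 13.4 and 15.6 CPM in control, and at col-140 they stood at 9.33 and 7.53 CPM, against 10.7 and 12.1 CPM. These also did not overlap, but neither gene passed the test (adjusted p = 0.149 and 0.294).

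**Figure D1:**
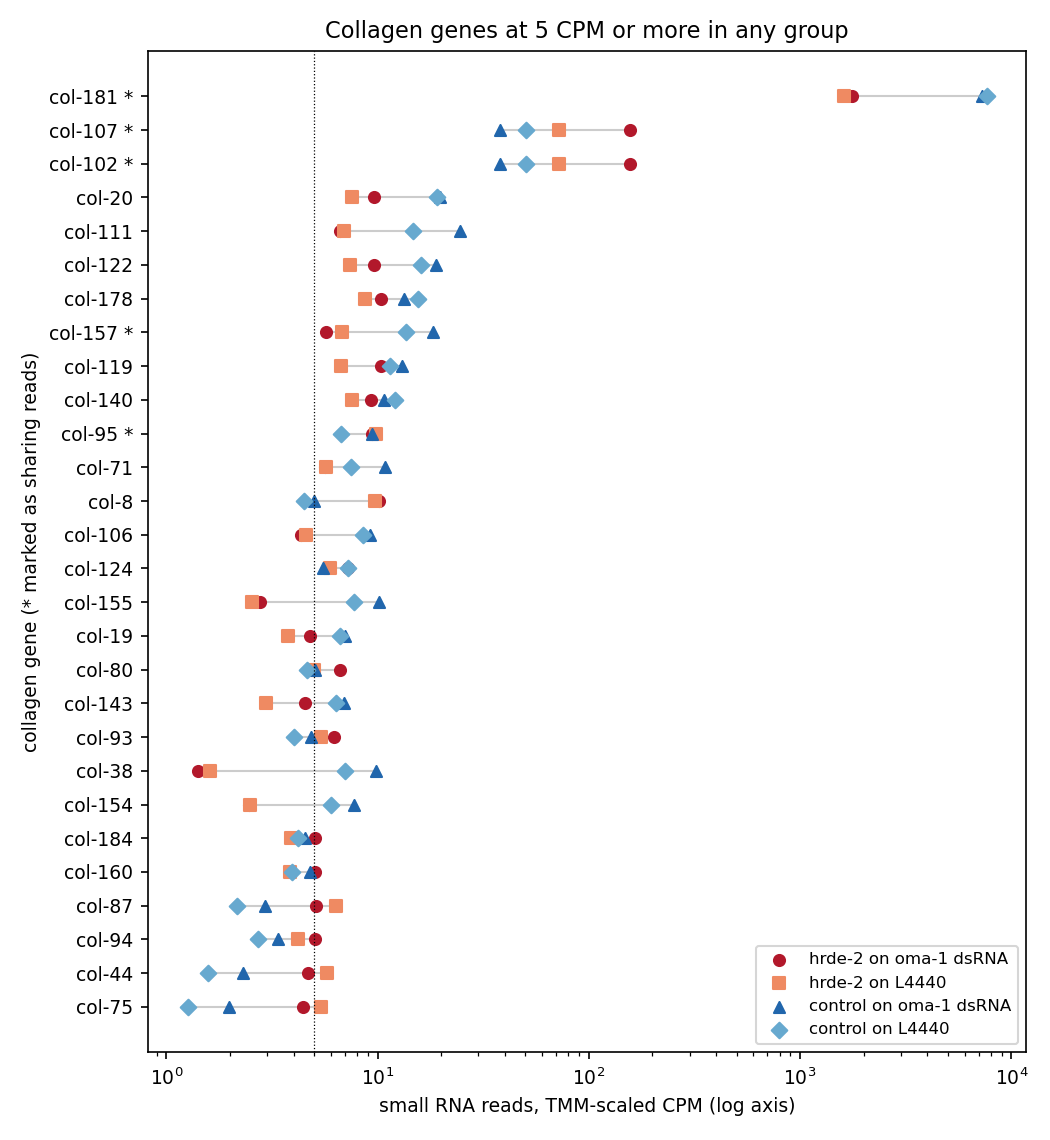
Small RNA level (TMM-scaled CPM, log axis) of the 28 collagen genes at 5 CPM or more in any group, with 1 point for each of the 4 pooled columns and the dotted line at 5 CPM. Genes with an asterisk share reads with another feature; col-181 lies between 1610 and 7629 CPM, col-102 and col-107 between 38 and 156 CPM, and all other genes below 25 CPM.

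The comparison of hrde-2 with control asks how small RNA at each gene differed between the strain with hrde-2(gg517) and its control. Averaged over both foods, 35 of the 134 collagen genes tested rose in hrde-2 and 16 fell, at an adjusted p under 0.05 in edgeR's quasi-likelihood test with Benjamini-Hochberg adjustment over all features. Over all features tested 11.7% were higher and 11.4% lower. Among the 125 unshared collagen genes tested, 32 (25.6%) were higher and 14 (11.2%) lower. The filter removed 22 collagen genes, and a gene of low level could pass it through the columns where it is high, so genes at a mean of 0.6 CPM or more, all of which were tested, are the fairer basis. Of the 83 unshared collagen genes at that level, 24 (28.9%) were higher in hrde-2 and 14 (16.9%) lower, and their median log2 difference was 0.29. Of the 7076 other unshared protein-coding genes at that level, 10.5% were higher and 12.8% lower, with a median of −0.12.

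Direction went with level among the collagen genes. At a mean of 0.6 to 2 CPM, 15 of 43 unshared collagen genes (34.9%) were higher and 4 (9.3%) lower, with a median log2 difference of 0.62, where other protein-coding genes had 9.89% higher and 8.98% lower and a median of −0.07. At 2 CPM or more, 9 of 40 (22.5%) were higher and 10 (25%) lower, with a median of 0.04, where other genes had 11.6% higher and 19.6% lower and a median of −0.20. The 32 genes called higher had a median of 1.0 CPM over the 4 columns and the 14 called lower a median of 5.08 CPM. However, 8 of the 32 and 0 of the 14 had a mean under 0.6 CPM, where the filter could pass genes through their high columns. These 2 medians are therefore no further support for the trend.

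These directions are relative to the TMM scale. With gene-assigned totals alone as the scale, the median of other unshared protein-coding genes was itself at a log2 of 1.19, and 8 of the 14 genes called lower turned above 0. That scale moves all genes up together, so it could not end a call in the other direction. DESeq2's Wald test called 8 of the 35 genes (col-12, col-13, col-44, col-75, col-81, col-102, col-107 and col-129) and 9 of the 16 (col-20, col-38, col-111, col-122, col-131, col-154, col-155, col-157 and col-181). Over all 13753 features it called 429 higher and 665 lower. In that test the collagen genes called higher thus did not outnumber those called lower. 

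Among the genes that rose, col-129 had the largest difference. At col-129 (WBGene00000703, IV:12108734-12110439) there were 88 and 201 reads in hrde-2 on oma-1 dsRNA and on L4440, against 12 and 7 in control, or 4.02 and 3.07 CPM against 0.52 and 0.42 CPM. The log2 difference was 2.87 ± 0.33 (SE from the edgeR fit of 4 columns; adjusted p = 3.51e-16). At col-81 (WBGene00000657, II:11012397-11013767) there were 99 and 215 reads in hrde-2, against 14 and 13 in control, a log2 difference of 2.47 ± 0.31 (adjusted p = 3.63e-14). With piRNA genes left out, neither gene overlaps another annotated gene. Both hrde-2 columns were more than 4 times the higher control column. Of the unshared genes that rose and reached 5 CPM in a column, col-75 had the largest difference, with 97 and 354 reads in hrde-2, against 45 and 21 in control, a log2 difference of 1.59 ± 0.28 (adjusted p = 1.85e-07). col-44 had 102 and 377 reads in hrde-2, against 53 and 26 in control, a log2 difference of 1.41 ± 0.27 (adjusted p = 4.04e-06).

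col-8 was the highest of the unshared genes that rose, with 10.2 and 9.73 CPM in hrde-2 on oma-1 dsRNA and on L4440, against 4.99 and 4.46 CPM in control, a log2 difference of 1.07 (adjusted p = 0.00205). Its span overlaps lgc-38, and reads of the 2 genes cannot be told apart without strand. col-87 had 5.12 and 6.36 CPM in hrde-2, against 2.93 and 2.17 CPM in control, a log2 difference of 1.16 (adjusted p = 0.000241). It overlaps xrn-1, so the same limit holds. Further genes that rose were col-12, col-13, col-17, col-39, col-41, col-60, col-73, col-76, col-77, col-88, col-118, col-133, col-137, col-141, col-146, col-147, col-159, col-161, col-162, col-165, col-166, col-167, col-168, col-169, col-170 and col-185. Their log2 differences ran from 0.78 at col-159 to 2.18 at col-146.

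Among the genes that fell, col-38 stood out. At col-38 (WBGene00000615, II:8568035-8569088) there were 31 and 105 reads in hrde-2 on oma-1 dsRNA and on L4440, against 224 and 116 in control, or 1.42 and 1.60 CPM against 9.80 and 6.99 CPM. The log2 difference was −2.41 ± 0.28 (adjusted p = 1.1e-15). The neighbouring pair col-155 and col-154 fell together. col-155 had 2.79 and 2.53 CPM in hrde-2, against 10.2 and 7.71 CPM in control, a log2 difference of −1.72 ± 0.28 (adjusted p = 2.2e-08). col-154 had 2.47 and 2.50 CPM in hrde-2, against 7.70 and 6.03 CPM in control, a log2 difference of −1.44 ± 0.27 (adjusted p = 1.44e-06). These 3 genes overlap no other annotated gene, with piRNA genes left out.

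Several of the collagen genes with most small RNA also fell. col-111 (IV:4655791-4657974) stood at 6.63 and 6.91 CPM in hrde-2 on oma-1 dsRNA and on L4440, against 24.5 and 14.7 CPM in control, a log2 difference of −1.48 ± 0.33 (adjusted p = 8.05e-05). It overlaps psr-1. The values of col-20 given above make a log2 difference of −1.19 ± 0.32 (adjusted p = 0.00216), and those of col-122, which overlaps lron-14, one of −1.04 ± 0.32 (adjusted p = 0.00716). With gene-assigned totals as the scale, these last 2 came to 0.005 and 0.15. col-19, which encodes a collagen of the adult cuticle whose gene is switched on in the hypodermis at the last molt, was at the edge of the threshold. It had 4.80 and 3.75 CPM in hrde-2, against 7.0 and 6.63 CPM in control, a log2 difference of −0.68 (adjusted p = 0.0489), and it overlaps ZK1193.2. Also lower were col-131 at −1.64, col-63 at −1.42, col-42 at −1.06, col-83 at −1.02, col-69 at −0.99, col-106 at −0.99 and col-143 at −0.86.

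Of the 9 marked genes, col-102 and col-107 rose with log2 differences of 1.29 and 1.28 (adjusted p = 0.00943 and 0.00947), and col-54 with 1.98 from 34 reads in all. col-181 fell with −2.15 (adjusted p = 0.000322) and col-157 with −1.34 (adjusted p = 0.000249). At the tRNA gene that shares the reads of col-181 the log2 difference was also −2.15. The adjusted p of col-95 was 0.546 and its log2 difference 0.27.

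**Figure D2:**
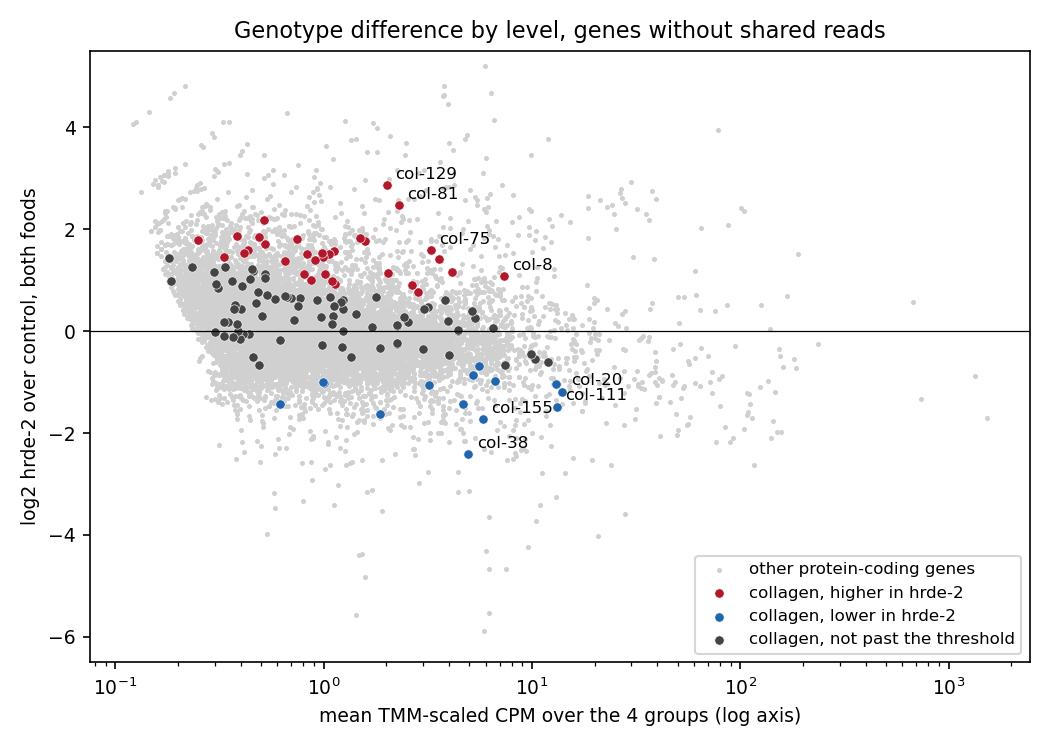
Log2 difference of hrde-2 over control, averaged over both foods, against mean TMM-scaled CPM over the 4 columns (log axis), for tested unshared genes. Grey points are other protein-coding genes; coloured points are collagen genes past the adjusted threshold, of which the 32 higher (red) have a median of 1.0 CPM and the 14 lower (blue) a median of 5.08 CPM, and dark points are collagen genes that did not pass it. Of the red genes 8 lie under a mean of 0.6 CPM, where the filter could pass genes through their high columns.

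Genes that overlap another annotated gene make up 71 of the 156. Overlaps with piRNA genes were left out of this count and of all overlaps named here. Of the unshared genes tested, 72 overlap none, and 34 of these passed the test in either direction, with a median log2 difference of 0.67. The other 53 overlap another gene, and 12 of these passed it, with a median of 0.27. Over all features 11.7% were higher and 11.4% lower. The same split was not made for other protein-coding genes. By chromosome the median log2 difference was 0.27 on I, 0.49 on II, 0.47 on III, 0.46 on IV, 0.46 on V and 0.99 on X, and every chromosome held genes of both signs. No such medians were taken for other genes, and X holds the run from col-166 to col-170 described below. All of these medians include genes under a mean of 0.6 CPM, where other unshared protein-coding genes tested had a median of 0.36.

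The difference between strains was also seen on each food by itself, where it rests on separate libraries. Of the 83 unshared collagen genes at a mean of 0.6 CPM or more, 47 were above 0 on both foods, 24 below 0 on both and 12 differed in sign. Of the 7076 other unshared protein-coding genes at that level, 2030 were above 0 on both, 3022 below 0 on both and 2024 differed in sign. Across these genes, which are not independent replicates, Pearson's r between the foods was 0.80 and Spearman's rho 0.79, against 0.74 and 0.62 over these other genes. col-83 was among the least alike, with 7 reads in hrde-2 on oma-1 dsRNA and 61 in hrde-2 on L4440, against 39 and 18 in control.

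On oma-1 dsRNA, 26 collagen genes had 5 CPM or more in the higher strain; 3 of them (11.5%) were higher by 2-fold or more in hrde-2 and 8 (30.8%) lower, where all features so compared gave 13.8% and 27.8%. The 3 higher were col-102, col-107 and col-8, whose ratio of hrde-2 to control was 2.04 (95% counting interval 1.62 to 2.57). The 8 lower were col-38 with a ratio of 0.145 (0.0960 to 0.211), col-181, col-111, col-155, col-157, col-154, col-106 and col-20, from 0.242 at col-181 to 0.486 at col-20. On L4440, 25 genes were compared; 4 (16%) were higher and 9 (36%) lower, where all features gave 13.5% and 27.5%. The 4 higher were col-75 with a ratio of 4.27 (2.75 to 6.98), col-44 with 3.67, col-87 with 2.93 and col-8 with 2.18. The 9 lower were col-181, col-38 with 0.229, col-155, col-20, col-154, col-122, col-143, col-111 and col-157. Of the unshared collagen genes alone, 1 of 21 (4.76%) was higher and 6 (28.6%) lower on oma-1 dsRNA, where other unshared protein-coding genes gave 14.3% and 24.7%, and 4 of 20 (20%) were higher and 7 (35%) lower on L4440, where those gave 13.9% and 17.7%. These shares rest on few genes and have no test.

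**Figure D3:**
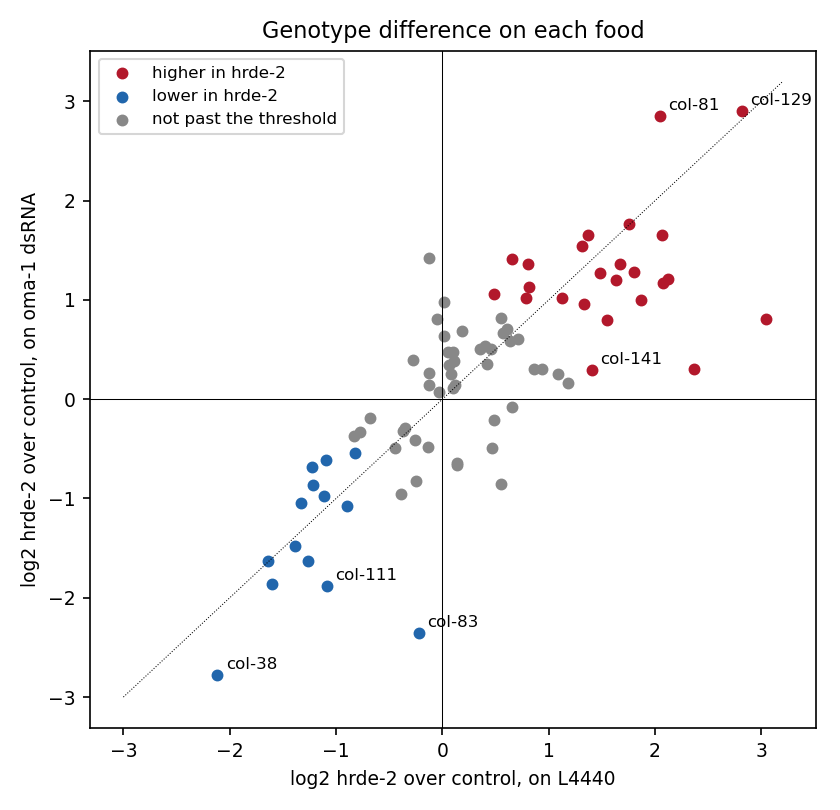
Log2 difference of hrde-2 over control on oma-1 dsRNA (vertical) and on L4440 (horizontal) for the 83 unshared collagen genes at a mean of 0.6 CPM or more; the dotted line marks equal differences. Red and blue genes passed the adjusted threshold over both foods, higher and lower in hrde-2; 47 genes lie above 0 on both axes and 24 below 0 on both.

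Many collagen genes lie next to one another. Of 28 pairs of neighbours with a gap of 5 kb or less, 24 had both genes tested, and in 21 of these the genotype differences had the same sign, with a median distance of 0.29 between the 2 log2 values. Without pairs that overlap or had near-equal reads, 18 of 21 pairs had the same sign. Since 90 of the 125 unshared genes tested lay above 0, many pairs would have the same sign whatever their position. The pairs also include genes under a mean of 0.6 CPM, where the filter could pass genes through their high columns. Beside the pair col-154 and col-155 that fell, the pair col-146 and col-147 on chromosome V rose, with log2 differences of 2.18 and 1.85 from 77 and 72 reads. Both col-146 and col-147 had a mean under 0.6 CPM, so the same limit holds for them. At col-12 there were 52 and 152 reads in hrde-2 on oma-1 dsRNA and on L4440, against 17 and 9 in control. At col-13, in the next position, there were 53 and 162 reads in hrde-2, against 16 and 12 in control. The log2 differences were 1.84 and 1.76.

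On the X chromosome, col-167 to col-170, each within 5 kb of the next, and col-166, the next collagen gene at a greater distance, all rose. Their spans were 903 or 906 bases and their log2 differences 1.13, 1.5, 1.57, 1.52 and 1.40 from col-166 to col-170. A further X-linked collagen gene with a span of 903 bases, col-180, had 15 and 72 reads in hrde-2 on oma-1 dsRNA and on L4440, against 22 and 20 in control, a log2 difference of −0.27 (adjusted p = 0.608). col-168, in the middle of them, had 38 and 107 reads in hrde-2 on oma-1 dsRNA and on L4440, against 17 and 6 in control. Whether neighbours with like values are counted from the same reads was not tested at this depth. Among neighbours with more reads, col-3 and col-117, 587 bases apart, had near-equal reads (59 and 133 in hrde-2, against 56 and 31 in control, at col-3), and so had col-7 and col-62. Runs with unlike values were also present. On chromosome II, col-20 fell while col-17 and col-73 on either side of it rose, with log2 differences of 1.12 and 0.99. The distance of 2.30 between col-17 and col-20 was the largest among the neighbours tested.

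**Figure D4:**
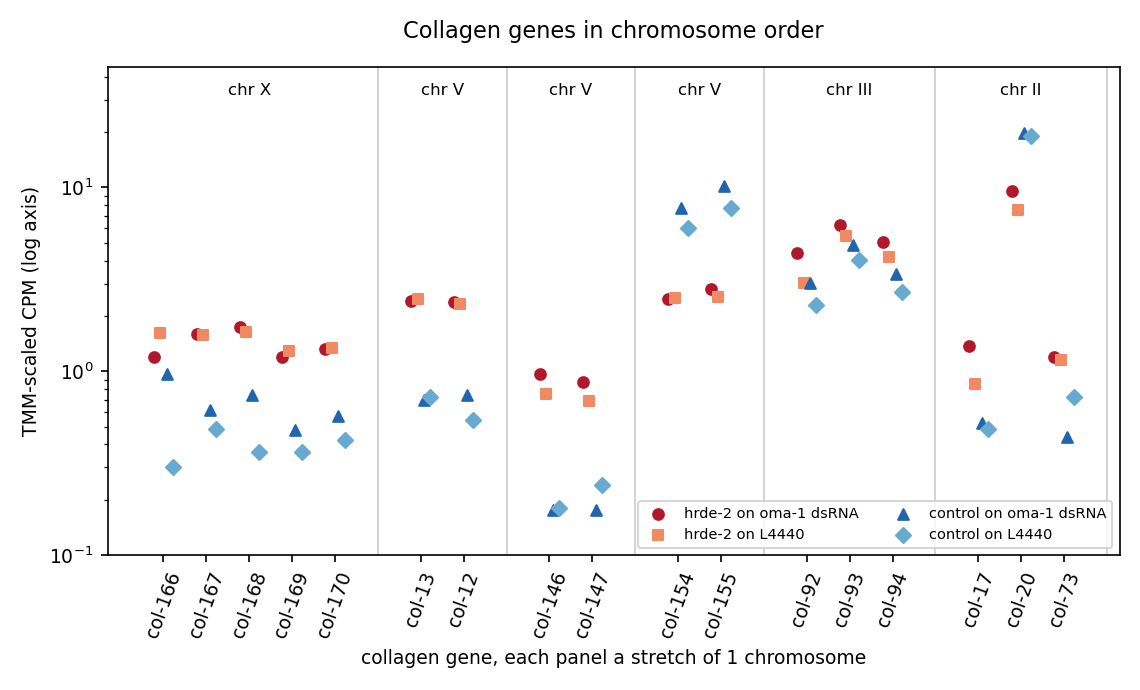
TMM-scaled CPM (log axis) in the 4 pooled columns for collagen genes that follow one another on a chromosome, in order within each panel; col-166 lies more than 5 kb from col-167. For col-166 to col-170, col-13 with col-12 and col-146 with col-147 the hrde-2 points lie above the control points, for col-154 and col-155 below them, and col-20 differs in direction from col-17 and col-73. The means of col-146 and col-147 are under 0.6 CPM, where the filter could pass genes through their high columns.

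The food comparison asks whether small RNA at collagen genes differed when animals ate dsRNA of oma-1, a gene for an oocyte zinc-finger protein. Averaged over both strains, edgeR called 0 of the 134 collagen genes tested higher and 0 lower on oma-1 dsRNA, where 0.116% and 0.102% of all features were called. DESeq2's Wald test also called 0 collagen genes, and over all 13753 features it called 5 higher and 0 lower. At an unadjusted p under 0.05 edgeR had 2 of the 134 higher, col-125 and col-39, and 3 lower, col-36, col-40 and col-141. Over all 13753 features, 333 were higher and 318 lower at that level, so these 5 genes do not set the collagen genes apart. The median log2 difference of the collagen genes was 0.10.

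In hrde-2, 22 collagen genes had 5 CPM or more on the higher food. Of these, 2 were higher by 2-fold or more on oma-1 dsRNA and 0 lower, where all features so compared gave 3.54% and 1.18%. The 2 are the pair with near-equal reads: col-102 had a ratio of oma-1 dsRNA to L4440 of 2.16 (95% counting interval 2.06 to 2.25) in hrde-2 and of 0.755 in control, and col-107 of 2.15 (2.06 to 2.25) in hrde-2 and 0.758 in control. With only 1 column in each group, whether this difference between strains exceeds the spread between samples was not tested. In control, 20 genes were compared and 0 were higher or lower, where all features gave 0.85% and 0.3%. The ratios farthest from 1 among the unshared genes compared were 1.55 (1.32 to 1.83) at col-119 in hrde-2 and 1.67 (1.43 to 1.95) at col-111 in control.

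**Figure D5:**
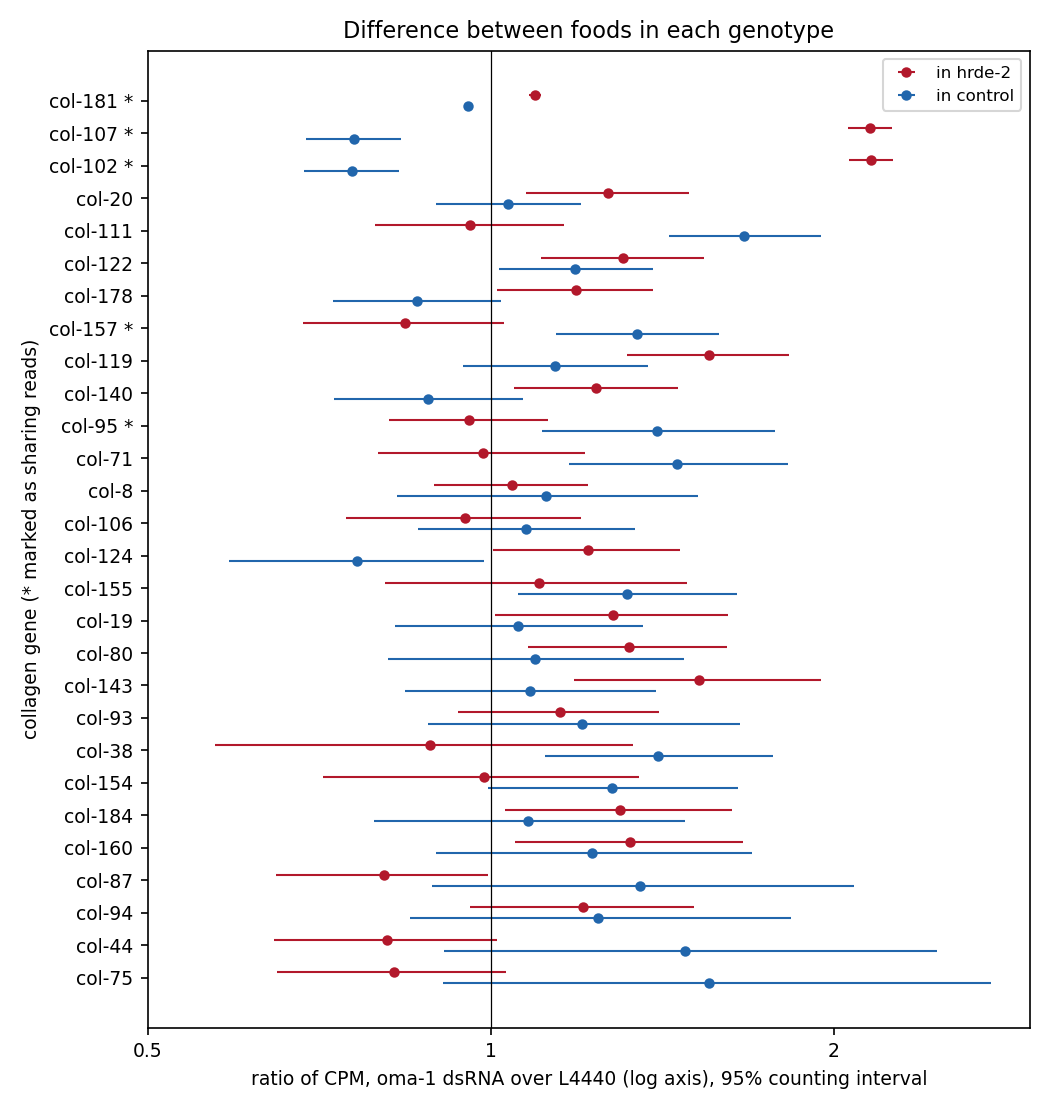
Ratio of CPM on oma-1 dsRNA over L4440 (log axis) in hrde-2 (red) and in control (blue) for the 28 collagen genes at 5 CPM or more in any group; bars are 95% counting intervals. col-102 and col-107, which had near-equal reads, are at 2.16 and 2.15 in hrde-2 and at 0.755 and 0.758 in control, and the unshared genes lie within 2-fold of 1.

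Other genes of the cuticle were taken from lists of gene names. Of 19 tested cuticle collagens named for their mutant shape, such as dumpy, roller and blister genes, 3 rose in hrde-2 and 2 fell, against 11.7% and 11.4% of all features. Those that rose had few reads: bli-2 had 11 and 41 in hrde-2 on oma-1 dsRNA and on L4440, against 7 and 2 in control, rol-6 had 8 and 23, against 2 and 1, and dpy-5 had 14 and 35, against 6 and 0. The filter on low counts could pass these 3 genes through their hrde-2 columns, so their count is no support for a direction. Lower were dpy-14, with a log2 difference of −1.28 (adjusted p = 0.000245), and dpy-17, with −1.02 (adjusted p = 0.00831). dpy-17 was also lower on oma-1 dsRNA than on L4440, with 11 and 20 reads in hrde-2 and control on oma-1 dsRNA, against 78 and 43 on L4440, a log2 difference of −1.41 (adjusted p = 0.0174). None of the 3 basement membrane collagens passed either test; let-2, a type IV collagen chain, had a log2 difference of 0.50 between strains (adjusted p = 0.184).

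Of 17 tested genes for modifying and processing collagen, 0 rose in hrde-2 and 3 (17.6%) fell. Over all features 11.7% were higher and 11.4% lower, and the shares of this list and the next 2 rest on few genes. dpy-31, which encodes an astacin metalloprotease that trims procollagen, had 104 and 265 reads in hrde-2 on oma-1 dsRNA and on L4440, against 382 and 215 in control, a log2 difference of −1.74 (adjusted p = 3.12e-07). skpo-1, a peroxidase gene, fell with −1.40 (adjusted p = 7.94e-07). bli-5, for a protease inhibitor-like protein, fell with −1.21 but shares reads with other genes. The prolyl hydroxylase partner gene pdi-2 had 0.39 (adjusted p = 0.372). Of 19 cuticlin genes tested, 3 (15.8%) rose and 0 fell: cutl-10 with 1.59 (adjusted p = 0.000544), cutl-15 with 1.51 (adjusted p = 0.00801) and cutl-28, which shares reads, with 4.42. The mean of cutl-15 was 0.54 CPM, where the filter could pass genes through their high columns. Of 17 molting and hypodermal regulators, 1 (5.88%) rose and 1 (5.88%) fell. The gene that rose was nhr-25, a nuclear receptor gene needed for molting, with 2.27 (adjusted p = 1.58e-09). The gene that fell was noah-2, an apical matrix gene, with −1.31 (adjusted p = 5.69e-06).

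Small RNA at marker genes of tissues is given beside these results; 11.7% of all features were higher and 11.4% lower in hrde-2. Of 9 hypodermis markers tested 3 rose (ajm-1, which shares reads, nhr-25 and rol-6) and 0 fell, and the summed level of the 10 listed was 42.2 and 36.7 CPM in hrde-2 on oma-1 dsRNA and on L4440, against 13.3 and 14.2 CPM in control. Only 2 of these markers, nhr-25 and ajm-1, reached a mean of 5 CPM. The filter on low counts could pass rol-6 through its hrde-2 columns. Of 9 muscle markers none passed the test, at 69.4 and 69.2 CPM in hrde-2, against 46.2 and 60.9 CPM in control. Of 12 germline markers 1 fell, cpg-2, at 69.7 and 65.0 CPM in sum in hrde-2, against 71.9 and 82.0 CPM in control. Of 12 intestine markers 2 rose and 1 fell, at 1111 and 848 CPM in hrde-2, against 1205 and 1164 CPM in control, and of 10 neuron markers 2 rose and 1 fell, at 11.2 and 12.8 CPM in hrde-2, against 9.49 and 11.2 CPM in control. No marker of these lists had 0 reads over the 4 columns. The part of tissue make-up in the collagen differences was not tested.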

How the data were processed

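The values are raw counts of reads at WormBase gene identifiers, as deposited and per the file headers, in 1 merged column for each group, and beside them a normalized signal that the authors made by dividing by 1 constant per column. HTSeq 0.6.1 is named in the submitters' processing notes. The aligner, build, strand setting and treatment of reads with several matches are not given in these sources. Of 46726 identifiers, 46364 matched the Ensembl annotation of WBcel235, which gave the names and positions printed here. Features were kept by filterByExpr (minimum count 10, total 15), scaled by TMM and fitted with glmQLFit (robust) and glmQLFTest of edgeR 4.0.16 in R 4.3.3, with genotype and dsRNA as additive terms, 1 residual degree of freedom, a common dispersion of 0.0297 and a prior count of 0.5. The standard error printed is the fitted coefficient divided by the root of its F value. DESeq2 1.42.0 was an alternative. Ratios carry Clopper-Pearson intervals of the conditional binomial (scipy 1.17.1). A gene was compared on 1 food, or in 1 strain, at 5 CPM or more in the higher column (109.4 reads in hrde-2 on oma-1 dsRNA, 327.9 in hrde-2 on L4440, 114.3 in control on oma-1 dsRNA and 83.0 in control on L4440) and called at 2-fold. Genes were marked for shared reads where they overlap a tRNA, rRNA, snRNA, snoRNA or miRNA gene, or where another feature had reads within 5% or 15 reads in every column at 1000 reads or more in total; lower pairs of collagen genes were looked for at 200 reads or more, within 5% or 2 reads. Genes named are those with the highest levels, the extremes of each comparison, every gene past the adjusted threshold, near-equal pairs and those next to the 5 CPM limit. The collagen genes as a subject and the other gene lists were chosen with earlier results of these data known, although the rule that picks the collagen genes uses their names alone. Promoter and protein sequences were not used here.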

Additional observations from a re-analysis of the deposited data

Results flagged for a closer look

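Of 28 collagen genes compared between the foods in either strain, 4 had counting intervals on opposite sides of 1 in the 2 strains, with 1 column in each group, so that the difference was not tested. The same count was not made over all features, so 4 of 28 cannot be called many or few. These intervals also leave out any error in the TMM scale, and 2 of the 4 genes, col-102 and col-107, are not separate measurements. The pair with near-equal reads, col-102 and col-107, was higher on oma-1 dsRNA in hrde-2 and lower in control, and its log2 food difference in hrde-2 minus that in control was 1.51 and 1.5. The same difference was 0.196 at col-181, whose reads are nearly those of a tRNA gene. At the unshared gene col-124 it was 0.672. There, the ratio of oma-1 dsRNA to L4440 was 1.22 (95% counting interval 1.01 to 1.47) in hrde-2 and 0.762 (0.589 to 0.987) in control, with 159 and 392 reads on oma-1 dsRNA and on L4440 in hrde-2, against 126 and 120 in control. col-124 overlaps qns-1.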

How the results depend on the processing

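No paired analysis was possible because each group has 1 merged column with no replicate number; leaving out replicates was not run for the same reason. Under DESeq2 size factors, miRNA gene reads and TMM over unshared protein-coding genes, the counts of collagen genes stayed within 1.5 times and their medians within 0.1 of those given here. With gene-assigned totals as the scale, the averaged genotype comparison gave 110 collagen genes higher and 2 lower (median 1.65), against 35 and 16 (0.48) under TMM. With the authors' constants it gave 84 and 6 (1.13), and DESeq2's Wald test 8 and 9. Of the 13753 features tested, 1609 were higher and 1563 lower under TMM, and 9734 and 217 with totals. The authors' constants gave 5075 and 495 of all features, and DESeq2's Wald test 429 and 665. A filter on the mean of 0.6 CPM, added after seeing the data, gave a median of 0.274, and no filter put the collagen median 0.358 above that of other protein-coding genes, against 0.464 with the filter used. On oma-1 dsRNA the counts higher and lower (3 and 8, median −0.35) came to 19 and 2 (1.14) with totals and 9 higher (0.56) with the authors' constants. There, 5 were lower at a limit of 10 CPM (−0.952), 11 were higher at 2 CPM (0.138), and 1 was higher without shared genes. On L4440 (4 and 9, −0.78) they came to 21 and 0 (1.44) with totals, 9 and 2 (0.431) with the authors' constants, 0 and 5 (−0.921) at 10 CPM, and 10 higher at 2 CPM (0.069). Between foods the averaged median of 0.10 became −0.0755 with totals. In hrde-2 the 2 higher became 0 with totals (median −0.0248), with the authors' constants (0.132) and without shared genes; at 2 CPM 1 was lower, and at 10 CPM the median was 0.441. In control the median was 0.243 with totals. With totals, these genes turned above 0: over both foods col-20 (0.00485), col-122 (0.15), col-106 (0.207), col-19 (0.509), col-143 (0.334), col-42 (0.143), col-83 (0.128) and col-69 (0.208); on L4440 col-20 (0.0229), col-111 (0.266), col-122 (0.243), col-143 (0.253), col-154 (0.0875) and col-157 (0.348). The cause was not tested. Of the other values for single genes, 1035 kept direction and call, 56 lost and 20 gained the call, and 49 moved beyond their counting interval.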
